A study of Mus musculus with 9 samples.

Results

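The Id, Hes and Hey genes encode helix-loop-helix proteins that control when neural progenitors differentiate, most of them by holding differentiation back, and their mRNAs are short-lived. Here their RNA was followed into the fraction of N2A RNA that co-immunoprecipitates with phosphorylated UPF1 (p-UPF1). The members were taken by gene name from the deposited counts. They were Id1, Id2, Id3, Id4, Hes1, Hes5, Hes6 and Hey1, which made 8 of 54325 gene names and 24 of 140658 transcripts. All 9 libraries came from N2A cells, a mouse neuroblastoma line, kept in 200 nM okadaic acid, a phosphatase inhibitor, for 2 h. The 3 groups, with 3 libraries each, held input RNA, RNA recovered with control rabbit IgG (rIgG IP) and RNA recovered with antibody to p-UPF1 (p-UPF1 IP). Every group carried the okadaic acid treatment, so no comparison bears on cells without it. Short RNase I footprints were sequenced rather than whole mRNAs.

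Id proteins lack the basic region that contacts DNA. They pair with E proteins such as Tcf3 and Tcf4 and so keep them from activating genes, and BMP signals induce Id transcription through Smad proteins. Hes and Hey proteins are DNA-binding repressors, and Hes1, Hes5 and Hey1 are classical targets of Notch. Hes6 differs in that it opposes Hes1 and favours neuronal differentiation. UPF1 is the RNA helicase of nonsense-mediated mRNA decay (NMD) and is phosphorylated when it acts. An exon junction well downstream of a stop codon is the best known feature that makes an mRNA an NMD target.

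Total counts were 25184464 to 29857955 in the input libraries, 5312526 to 6246110 in the p-UPF1 IP and 79010 to 474491 in the rIgG IP. The smallest share that 3 counts can show was 0.100 to 0.119, 0.480 to 0.565 and 6.32 to 38 CPM, taken on library totals, in the same order, and these floors cover counting error only. The 10 most-counted transcripts took 76.8% to 82.3% of each library. All 16 markers of N2A cells and neurons were counted in every input library, with a summed level of 357 to 394 CPM in input, 404 to 440 CPM in the p-UPF1 IP and 348 to 456 CPM in the rIgG IP. The 14 markers of other cell types summed to 2.85 to 3.73 CPM in input, 12.2 to 14.9 CPM in the p-UPF1 IP and 0 to 12.7 CPM in the rIgG IP, and 5 to 8 of them were at 0 in an input library, among them Col1a2, Aqp4 and Alb in all of these. Their part in the results was not tested.

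In the input, the members lay far apart in level. Each transcript's count was divided by the length of that transcript in kb, summed by gene and taken as CPM of the library total. Counts of short transcripts, such as one of 277 nt in Id3, thus weigh more. By this measure Id1 stood at 12.4 ± 0.316, Id3 at 9.74 ± 1.31 and Id2 at 7.86 ± 0.469 CPM per kb (mean ± SD, n = 3). On the same scale Hes6 had 1.20 ± 0.294, Id4 0.912 ± 0.0965 and Hey1 0.802 ± 0.132 CPM per kb. The 3 input libraries of Id1 lay above those of Id3, and those of Id3 above those of Id2, whereas Hes6, Id4 and Hey1 overlapped with their neighbours. Hes5 followed at 0.0783 ± 0.0639 CPM per kb, from 5, 1 and 2 counts. Hes1 was listed at 0 in each of the 9 libraries for all 4 of its transcripts. If Hes1 was quantified like other genes, a count of 0 over the 3 input libraries together allows a level of up to 0.0370 CPM. A 0 in every library can also be a failed estimate or a gap in the reference, which these values do not separate. No 35-nt window of a Hes1 transcript was found in a transcript of another gene. The related repressors Hes3 and Helt were also listed at 0 in all 9 libraries.

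The first question was which of these RNAs were more, or less, abundant in the p-UPF1 IP than in the input. Hes6, Id3 and Hes5 were higher in the p-UPF1 IP, Id2 was lower, and Id1, Id4 and Hey1 were not called. Thus 3 of the 7 members tested were higher, against 26.3% of the 16919 genes tested, and 1 was lower, against 35.7%. Hes5 passed the filter on low counts only through the p-UPF1 IP, where it is high, and so bears little weight in this count. With the stricter filterByExpr it was not tested, and 2 of 6 members were higher. All 3 that were higher were also enriched (log2 fold change above 1), as were 17.3% of genes, and Id2 was depleted (below -1), as were 26.5%. The median log2 fold change was 0.02 over the members and -0.42 over all genes tested. Of all genes called, 42.4% were higher, and this share was 56.7% where library totals replaced TMM factors, which raised the median of all genes by 0.41 on the log2 scale. Each p below is Benjamini-Hochberg adjusted over all genes from edgeR's quasi-likelihood test. CPM values for the tests were scaled by TMM.

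The input libraries held 51, 38 and 39 counts of Hes6, and the less deeply sequenced p-UPF1 IP held 209, 218 and 233. After scaling these were 2.22, 1.70 and 1.57 CPM in input and 35.4, 29.9 and 32.8 CPM in the IP. Every IP library lay above every input library, and Hes6 was 17.8-fold higher (32.7 ± 2.75 against 1.83 ± 0.345 CPM, n = 3; log2 fold change 4.16, SE 0.13, edgeR adjusted p = 2.65e-09). Only 1.23% of the genes tested had a higher log2 fold change than Hes6.

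Id3 was counted 331, 268 and 295 times before the p-UPF1 IP and 626, 688 and 686 times after it. On the TMM scale it stood at 14.4, 12.0 and 11.8 CPM in input and at 106, 94.5 and 96.7 CPM in the IP. The groups did not overlap, and Id3 was 7.77-fold higher (99.1 ± 6.20 against 12.7 ± 1.44 CPM, n = 3; log2 fold change 2.96, SE 0.10, edgeR adjusted p = 3.42e-09). Of the members, Id3 had the most counts in the p-UPF1 IP, and 2.64% of genes had a higher log2 fold change.

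Hes5, a Notch target of neural progenitors, was close to the limit of detection. Its 5, 1 and 2 input counts gave 0.217, 0.0447 and 0.0803 CPM, and its 7, 3 and 7 p-UPF1 IP counts gave 1.19, 0.412 and 0.987 CPM. The groups did not overlap (0.862 ± 0.402 against 0.114 ± 0.0912 CPM, n = 3; log2 fold change 2.81, SE 0.71, edgeR adjusted p = 0.00614). The result rests on 8 counts in input and 17 in the IP, and without the first input library the log2 fold change was 3.58. The annotated span of Hes5 overlaps that of the antisense gene Gm20421 by 756 nt, introns included. How much transcript sequence the 2 share was not measured. Reads there may not be told apart if strand was not used in counting.

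Id2 moved the other way. Its counts were 263, 232 and 304 in the input libraries against only 23, 27 and 23 after the IP, or 11.4, 10.4 and 12.2 CPM against 3.90, 3.71 and 3.24 CPM. No IP library reached the input range, and Id2 was 3.14-fold lower (3.62 ± 0.338 against 11.3 ± 0.926 CPM, n = 3; log2 fold change -1.65, SE 0.13, edgeR adjusted p = 1.95e-06). In rank this is not extreme, since 74.5% of the genes tested had a higher log2 fold change. In the Id2 mRNA, 31 of the 35-nt windows also occur in the gene Gm6175, so reads there cannot be told apart.

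For Id1, 313, 289 and 340 input counts compared with 68, 90 and 83 IP counts, or 13.6, 12.9 and 13.7 CPM against 11.5, 12.4 and 11.7 CPM. The IP libraries lay just below the input libraries, but the difference did not pass the test (log2 fold change -0.17, SE 0.08, edgeR adjusted p = 0.129). Id4 ranged from 3.48 to 4.58 CPM in input and from 3.05 to 5.64 CPM in the IP (log2 fold change 0.02, SE 0.22, edgeR adjusted p = 0.930). The sign of this small difference turned to 0.24 for Id1 with library totals. For Id4 it turned with no filter (-0.05), without the third IP library (-0.25) and without the second input library (-0.06). Hey1 had 44, 58 and 49 input counts and 12, 10 and 7 IP counts, and its groups overlapped (1.46 ± 0.530 against 2.16 ± 0.376 CPM; log2 fold change -0.58, SE 0.30, edgeR adjusted p = 0.119). The annotated span of Id4 overlaps those of the antisense genes A330033J07Rik and Gm49291 by 1396 and 1364 nt, introns included. Its counts may thus be uncertain in the same way as those of Hes5.

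**Figure D1:**
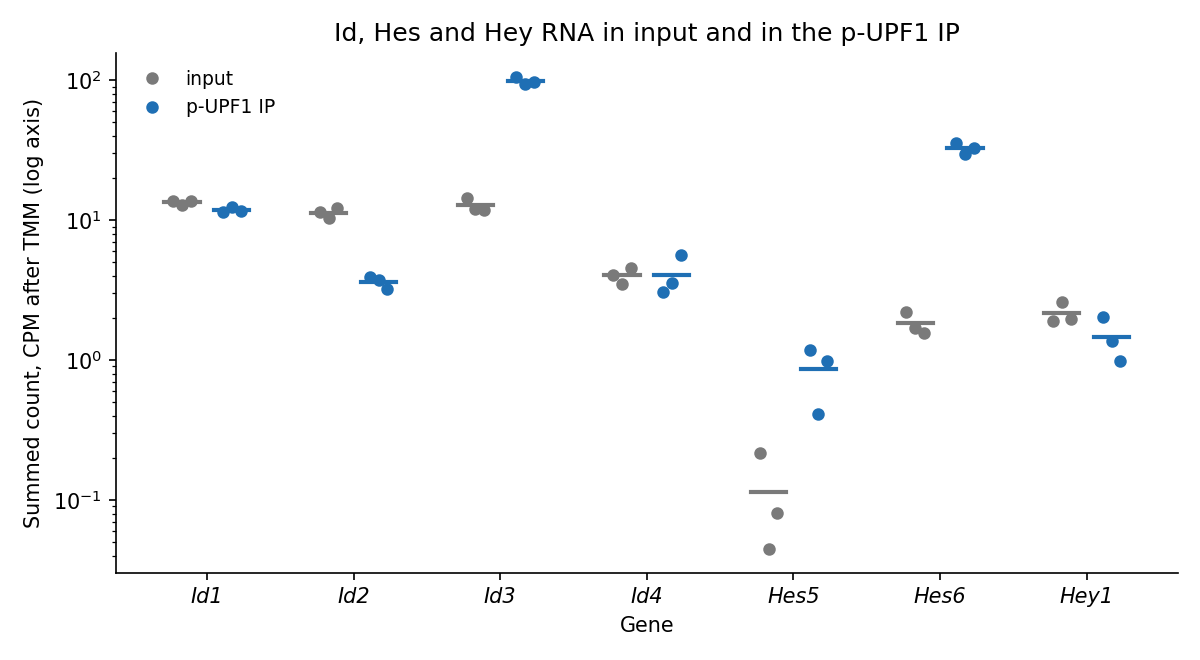
TMM-scaled CPM (log axis) of the 7 members with counts, summed over transcripts, in the 3 input libraries (grey) and the 3 p-UPF1 IP libraries (blue), with points for libraries and bars for group means. Hes6 and Id3 rise from 1.83 and 12.7 CPM to 32.7 and 99.1 CPM, Id2 falls from 11.3 to 3.62 CPM, and the points of Id4 and Hey1 overlap between the groups.

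Because the scaling of an IP library affects all members alike, the ratio of a pair of members within a library does not depend on it. Id3 and Id1 were counted almost equally in input, with Id3 to Id1 ratios of 1.06, 0.927 and 0.868, and stood at 9.21, 7.64 and 8.27 in the p-UPF1 IP, an 8.81-fold change. The Id3 to Id2 ratio went from 1.13 ± 0.146 to 27.5 ± 2.19 (24.5-fold, n = 3), and the Id1 to Id2 ratio from 1.18 ± 0.0638 to 3.30 ± 0.327 (2.78-fold). In order of their recovery in the p-UPF1 IP relative to input, Id2 was lowest, Id1 and Id4 lay between and Id3 was highest. Among the repressors, the Hes6 to Hey1 ratio went from 0.870 ± 0.260 to 24.2 ± 8.20. In 7 of the 9 pairs compared, the groups did not overlap, with an exact two-sided permutation p of 0.1, the smallest that 3 libraries against 3 allow, and an adjusted p of 0.129. The other 2 were Id1 to Id4 (0.903-fold, exact permutation p = 0.9) and Id1 to Hey1 (1.35-fold, exact permutation p = 0.3). The 9 pairs are a selection from all possible pairs of members. Each of the 7 holds Id2, Id3 or Hes6, so they are not separate results. No share over pairs of all genes was computed, so the count of pairs has no background to be read against.

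The second question was whether the same RNAs stood above what rIgG recovers. Id3 and Hes6 were higher in the p-UPF1 IP than in the rIgG IP, and no member was lower. These were 2 of 7 members, against 17.9% of the 12033 genes tested (17.5% enriched), while 5.59% of genes were lower and 5.34% depleted. With 0 to 9 rIgG counts each, Id2, Id4, Hes5, Hes6 and Hey1 passed the filter on low counts only through the p-UPF1 IP. Hes6, which was called, is among them, so the count of members bears little weight. The filter also favours genes high in the deeper p-UPF1 IP libraries among all genes tested. Of all genes called, 76.2% were higher, or 64.1% with RLE factors and 55.7% with DESeq2. This comparison shares the p-UPF1 IP libraries with the first and is not independent of it.

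In the rIgG IP libraries Id3 had 5, 4 and 1 counts, or 12.7, 18.6 and 8.47 CPM, below its 135, 119 and 121 CPM in the p-UPF1 IP on the scale of this comparison. Id3 was 9.02-fold higher (log2 fold change 3.17, SE 0.34, edgeR adjusted p = 1.33e-07). Hes6 had 2, 0 and 1 counts with rIgG, and its log2 fold change was 3.30 (SE 0.56, edgeR adjusted p = 0.000103). From these 3 counts, the ratio of Hes6 levels by library totals was 9.49, with an exact 95% interval of 3.23 to 46.1 for counting error only.

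Id2 had 6, 3 and 0 counts in the rIgG IP, and its log2 fold change of -1.43 did not pass the test (SE 0.59, edgeR adjusted p = 0.0828), although it did under some other settings. Id1 had 9, 2 and 1 counts with rIgG and stood at 13.6 ± 8.11 CPM there against 14.9 ± 0.510 CPM in the p-UPF1 IP (n = 3; log2 fold change -0.14, edgeR adjusted p = 0.843). Id1 was thus recovered with rIgG over a range that holds its p-UPF1 IP level. Id4 had 0, 1 and 1 counts (ratio 1.81, exact 95% interval 0.486 to 15.2). Hey1 and Hes5 were at 0 in all rIgG libraries and below the floor of these in the p-UPF1 IP, so no fold is given for them.

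In the rIgG IP over input, which gives the background of the procedure, none of the 6 members tested was called, 0 also at an unadjusted p under 0.05 with edgeR and 0 with DESeq2. Of the 16280 genes tested, 0.584% were higher and 0.313% lower. The log2 fold changes were 0.22 for Id1, 0.05 for Id2 and 0.04 for Id3. From 3 rIgG counts of Hes6 and 2 of Id4, the ratios by library totals were 2.50 (exact 95% interval 0.510 to 7.49) and 0.747 (0.0901 to 2.72). Hey1 was at 0 with rIgG, so no fold is given. At 0 to 12 counts per tested member over the 3 rIgG libraries, small differences were not detectable.

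The next question was which transcripts carried these counts. Estimates for transcripts of a gene are less certain than their sum, because Salmon divides shared reads between them. In the p-UPF1 IP over input, 4 of the 14 member transcripts tested were higher, against 9.44% of the 42616 transcripts tested (8.55% enriched, and all 4 here), and 2 were lower, against 17.2% (16.2% depleted, and 1 here). Over the rIgG IP 2 were higher, against 12.7% of 23034, and 0 were lower or depleted, against 1.35% and 1.34%. The 2 higher transcripts passed the filter on low counts only through the p-UPF1 IP, so this count bears little weight.

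The coding Id3 mRNA, ENSMUST00000008016.2 (chr4:136143497-136145392 in GRCm38, plus strand), held 93.6% of Id3 counts in input and 90.7% in the p-UPF1 IP. It was counted 308, 256 and 273 times in input against 571, 635 and 608 times in the IP (log2 fold change 2.61, SE 0.12, edgeR adjusted p = 0.000180). A short noncoding Id3 transcript of 277 nt, ENSMUST00000133946.1 (chr4:136144974-136145755), which extends beyond the annotated end of the mRNA, went from 9, 6 and 9 counts to 53, 53 and 76. It was higher in the IP as well (log2 fold change 4.39, SE 0.30, edgeR adjusted p = 0.000547), and its share of Id3 counts was 2.68% in input and 9.10% in the IP. It was also prominent with rIgG, with 3, 1 and 1 of the 5, 4 and 1 Id3 counts there. Its log2 fold change in the rIgG IP over input was 3.49 (edgeR adjusted p = 0.0558), and it did not pass as higher in the p-UPF1 IP than in the rIgG IP (log2 fold change 1.17, SE 0.40, edgeR adjusted p = 0.153). The Id3 transcript with a retained intron, ENSMUST00000151001.1, had 14, 6 and 13 input counts and 2, 0 and 2 IP counts, and was not called (log2 fold change -1.46, edgeR adjusted p = 0.357). Windows of 35 nt found in no other Id3 transcript made up 65.0% of the mRNA and 70.8% of the short transcript.

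The coding Hes6 mRNA, ENSMUST00000086851.1 (chr1:91411483-91413222, minus strand), rose from 47, 31 and 36 input counts to 204, 195 and 97 IP counts (log2 fold change 3.64, SE 0.41, edgeR adjusted p = 0.00250). In the third IP library, 115 of the 233 Hes6 counts were given to ENSMUST00000132188.7, a retained-intron transcript at 0 in the other 8 libraries. That transcript was not called (edgeR adjusted p = 0.173), and its value rests on 1 library. Another retained-intron transcript, ENSMUST00000126136.7, had 3, 7 and 3 input counts and 5, 23 and 21 IP counts (log2 fold change 3.28, SE 0.78, edgeR adjusted p = 0.0297). No 35-nt window of the coding Hes6 mRNA is free of overlap with its other transcripts, whereas the summed Hes6 counts of the 3 IP libraries lay close together.

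**Figure D2:**
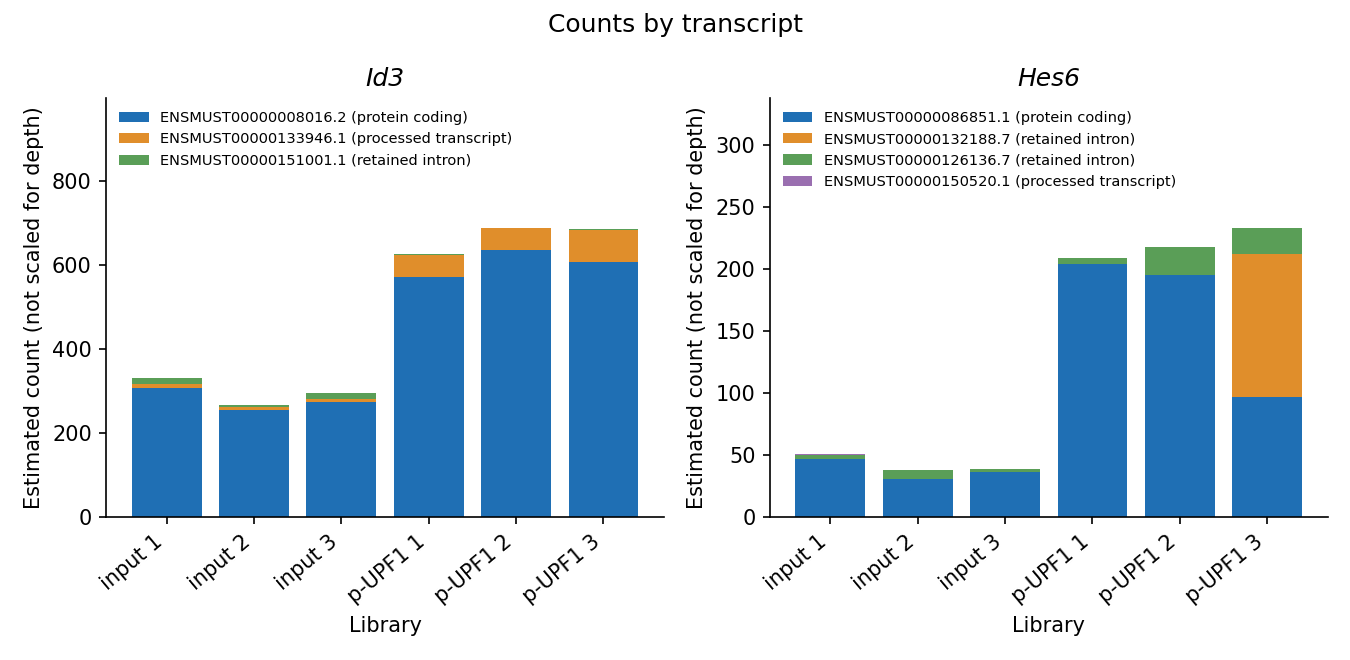
Estimated counts of Id3 (left) and Hes6 (right) by transcript, stacked for each input and p-UPF1 IP library and not scaled for depth. The coding transcripts hold most counts, except in the third p-UPF1 IP library of Hes6, where a retained-intron transcript holds 115 of 233 counts.

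Of the lower transcripts, the Id2 mRNA ENSMUST00000020974.6 (chr12:25093801-25096092, minus strand) went from 248, 219 and 277 counts to 22, 25 and 22 (log2 fold change -1.93, SE 0.16, edgeR adjusted p = 0.000952). The spliced Id1 mRNA ENSMUST00000038368.8 (chr2:152736251-152737410, plus strand) had 292, 285 and 327 input counts and 63, 90 and 83 IP counts. Its log2 fold change of -0.45 (SE 0.12, edgeR adjusted p = 0.0403) kept its call in only 1 of 13 alternatives and turned to 0.26 with library totals, and summed Id1 was not called. The single transcript counted for Id4 (chr13:48261228-48266026) and the Hey1 mRNA (chr3:8663359-8667256) were not called, with log2 fold changes of -0.29 and -0.88. The coding Hes5 transcript (chr4:154960923-154962371) was not called either (log2 fold change 2.27, edgeR adjusted p = 0.277). The 3 Hes5 counts of the second IP library were given to another transcript.

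Over the rIgG IP, the coding Id3 mRNA was higher by a log2 fold change of 4.47 (edgeR adjusted p = 0.0167) and the coding Hes6 mRNA by 3.35 (edgeR adjusted p = 0.0442). From the 3 counts of the Hes6 mRNA with rIgG, the ratio by library totals was 7.13, with an exact 95% interval of 2.43 to 34.7. Without any single p-UPF1 IP library neither was called, but such fits called at most 0.0102% of all transcripts, and the log2 fold changes stayed at 4.46 to 4.51 for Id3 and 3.09 to 3.65 for Hes6. The Hes6 mRNA was not called without any single rIgG library either.

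The annotated gene structures of the members, which the choice by name did not use, were also compared. The last exon junction lies just after the stop codon, by 7, 23 and 18 nt, in the annotated mRNAs of Id2, Id3 and Id4. A further coding transcript of Id2 has 1 exon and so no junction. In the mRNAs of Id1, Hes1, Hes5, Hes6 and Hey1 no junction follows the stop. None of the 11 coding member transcripts has a junction more than 50 nt after its stop, as 0.606% of 47393 coding transcripts in the annotation do, and 5.84% of the latter have any junction there. These values cover only transcripts annotated as protein-coding. Any that the annotation gives another type, such as nonsense-mediated decay, were left out, so the values say little about how common such junctions are. The sequences around the stop codon are printed to show these ends side by side, from the annotated transcripts of GENCODE M21 (GRCm38), 5′ to 3′ with the stop codon in capitals.
Id3: TGAcccggtcgtcctggcacctcccgaacg
Id4: TGAgctgcgatggatggccaggtgtgcggc
Id2: TAAataaatggcatttggggactttttttt
Id1: TGAggcggcgcactgagggaccagatggac
Hes6: TGAccaacacttaccagggacctgtgaatg
The junction follows base 26 of the Id3 window, base 21 of that of Id4 and base 10 of that of Id2, counted from the first base of the stop. Id3 and Id2, higher and lower in the p-UPF1 IP, each have the last junction after the stop, by 23 and 7 nt. Hes6 and Id1 both lack a junction after the stop. The part of junction position in these results was not tested.

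The 3′ UTRs differ in length and in AU-rich pentamers. They measure 397 nt in Id1, 783 nt in Id2, 536 nt in Id3, 3093 nt in Id4, 696 nt in Hes5, 575 nt in Hes6 and 1137 nt in Hey1, against a median of 549 nt over the annotation. The letters ATTTA, the core of AU-rich elements that speed mRNA decay, were searched on the mRNA strand. They occur 3 times in the Id2 3′ UTR, 9 times in that of Id4 and once in that of Hey1, and do not occur in those of Id1, Id3, Hes5, Hes6 or Hes1. Of all 3′ UTRs within 20% of the same length, 65.9% hold ATTTA for Id2, 96.9% for Id4, 77.6% for Hey1, 53.5% for Id3 and 55.1% for Hes6. Whether ATTTA bears on recovery in the p-UPF1 IP was not tested. The 3 Id2 sites begin 213, 462 and 738 nt after the stop and are shown with ATTTA in capitals.
Id2 site at 213: ataccgttATTTAtgagagac
Id2 site at 462: gtgtatatATTTAtatataaa
Id2 site at 738: cagttcaaATTTAtgtagact
The Pumilio motif TGTANATA occurs once in the Id2 3′ UTR, where it overlaps the second of these sites, 4 times in that of Id4 and once in that of Hes1, and 17.8%, 46.5% and 7.34% of 3′ UTRs of like length hold it. A match to letters is a description of the sequence and no evidence of a protein bound there.

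**Figure D3:**
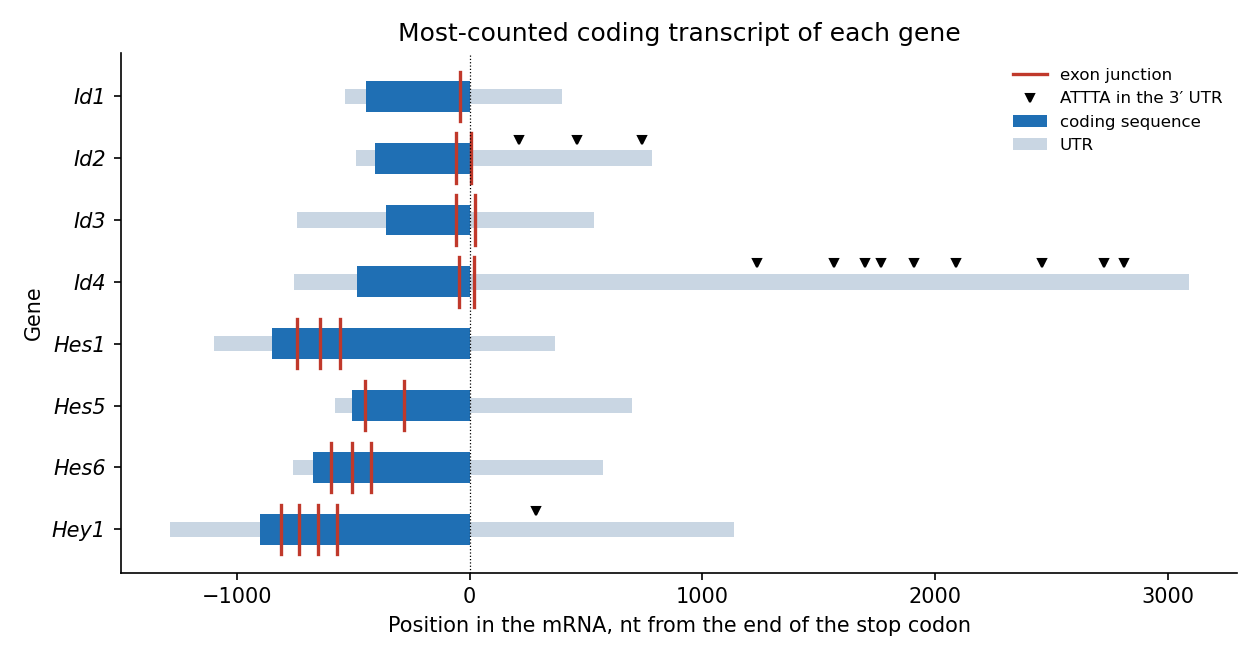
The coding transcript of each member with the most input counts (Hes1 has none), drawn to scale in nt from the end of the stop codon, with coding sequence in blue, UTRs in pale blue, exon junctions as red lines and ATTTA as black triangles. Junctions after the stop appear in Id2, Id3 and Id4 only, within 23 nt, and triangles in Id2, Id4 and Hey1 only.

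Base composition moved with the recovery in the p-UPF1 IP. Over 16897 genes with an annotated transcript (99.87% of those tested), the log2 fold change over input had a Spearman rho of 0.364 with the GC content of the most-counted transcript and 0.216 with its length, as a description across genes, which are not independent. The median log2 fold change was -1.25 for the 4611 genes under 45% GC, -0.59 from 45% to 50%, -0.05 from 50% to 55%, 0.50 from 55% to 60% and 0.82 above that. Hes5 (62.1% GC), Hes6 (60.3%) and Id3 (55.6%) were the richest in GC of the members and Id4 (42.6%) and Id2 (42.4%) the poorest. Over the 7 members, Hes5 included, rho was 0.786, as a description only. Hes5 rests on 8 input and 17 IP counts. It passed the filter on low counts only through the p-UPF1 IP, and so bears little weight here. Id1, at 55.2% GC, is close to Id3 in composition and had a log2 fold change of -0.17 against 2.96. Hes6 and Id3 lay above the upper quartile of genes in their GC range (1.71 and 1.37), and Id2 lay between the median and the lower quartile of its own (-2.53). The part of GC content in these results was not tested.

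**Figure D4:**
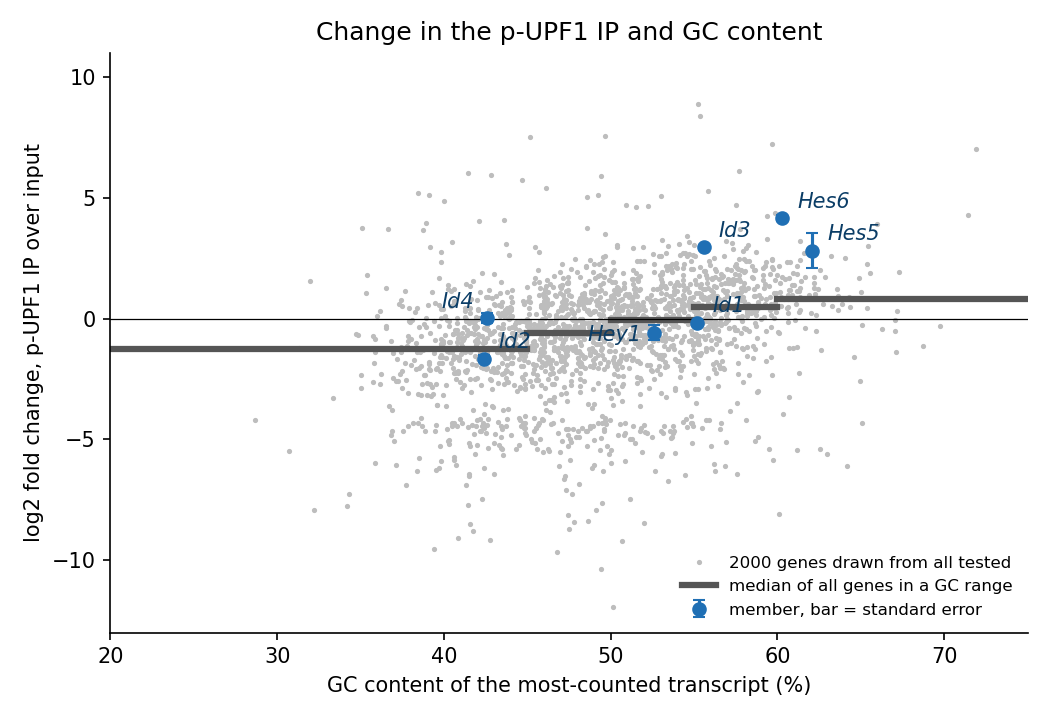
Log2 fold change in the p-UPF1 IP over input against the GC content (%) of the most-counted transcript, for 7 members (blue, bars are standard errors) and 2000 genes drawn from all tested (grey), with the median of all genes in each GC range as dark lines. Hes6, Id3 and Hes5 lie above the line of their range, and Id1 lies below it at nearly the same GC content as Id3. Hes5 rests on few counts and passed the filter on these only through the p-UPF1 IP.

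The pathways that act on the members, and other short-lived mRNAs, were then examined as lists of genes, again comparing the p-UPF1 IP with input, where 26.3% of all genes were higher and 35.7% lower. Over the 10 lists together 44 of 99 genes tested were higher and 22 lower, or 55 and 18 with library totals. The 44 include Dll1, which passed the filter on low counts only through the p-UPF1 IP. Of the other Hes, Hey and related repressors, 1 of 6 tested was higher (Bhlhe41, log2 fold change 1.03, edgeR adjusted p = 0.0111) and 2 were lower. Hes7, the repressor of the somite clock, had 2090, 1829 and 2619 input counts and 0, 2 and 0 IP counts (edgeR adjusted p = 2.65e-09). From these 2 counts, the ratio of IP to input by library totals was 0.00141, with an exact 95% interval of 0.000171 to 0.00509 for counting error only. This count is uncertain, because 42 of the 1775 windows of Hes7 also occur in transcripts of 431 other genes. The other one was Hey2, named after its values were seen, with 10, 9 and 7 input counts and none in any p-UPF1 IP library.

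Among Notch ligands and receptors, 5 of 8 tested were higher and 1 lower (median log2 fold change 0.89). They included the ligand Jag2 (1.26), the receptor Notch2 (0.51) and, on the lower side, the noncanonical ligand Dlk1 (-1.57). The ligand Dll1, among the 5 higher, had 0, 1 and 2 input counts and 4, 3 and 4 IP counts. It passed the filter on low counts only through the p-UPF1 IP, and so bears little weight in this count. Of the genes that process or modulate Notch, 7 of 20 were higher and 5 lower, such as the ubiquitin ligases Mib2 (1.73) and Mib1 (-1.34) and the gamma-secretase subunit Psenen (-3.52). In the nuclear complex and its Groucho co-repressors 9 of 15 were higher and 4 lower (median 0.36), with the co-repressors Tle3 at 1.79 and Tle1 at 1.28 and the coactivator Maml2 at -1.30.

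None of the 9 BMP ligands and receptors tested was higher with edgeR, and 2 were lower, the receptors Bmpr2 (-2.38) and Bmpr1a (-0.88). Of the ligands only Bmp5 was tested, with 3, 0 and 3 input counts and 0, 4 and 0 IP counts. The list thus says little about ligands. Smads and BMP inhibitors split evenly, with 5 of 15 higher and 5 lower. The inhibitory Smad6 had 68, 76 and 95 input counts and 162, 174 and 217 IP counts (log2 fold change 3.00, edgeR adjusted p = 1.70e-08), the ubiquitin ligase Smurf1 stood at 2.47, and the signal carrier Smad5 at -1.59. Of the 3 E proteins that Id proteins bind, Tcf3 was higher (1.11), and Tcf4 (-1.39) and Tcf12 (-0.87) were lower. Only 4 of 24 tissue-specific bHLH activators were counted enough to test, and 3 were higher, Tal1 (2.14), Atoh8 (1.88) and Hand2 (0.86).

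Other families of short-lived, inducible mRNAs gave these values beside the members. Of the AP-1 genes 7 of 8 tested were higher and none lower (median 0.96), led by Jun (2.62), Atf3 (2.00) and Jdp2 (1.56). Of the Arc, Ier, Egr and Nr4a genes 6 of 11 were higher and 1 lower (median 0.61), led by Ier2 (4.19), Arc (3.48) and Ier5 (3.05). Ier2 was near Hes6 in size, and Arc and Ier5 were near Id3.

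**Figure D5:**
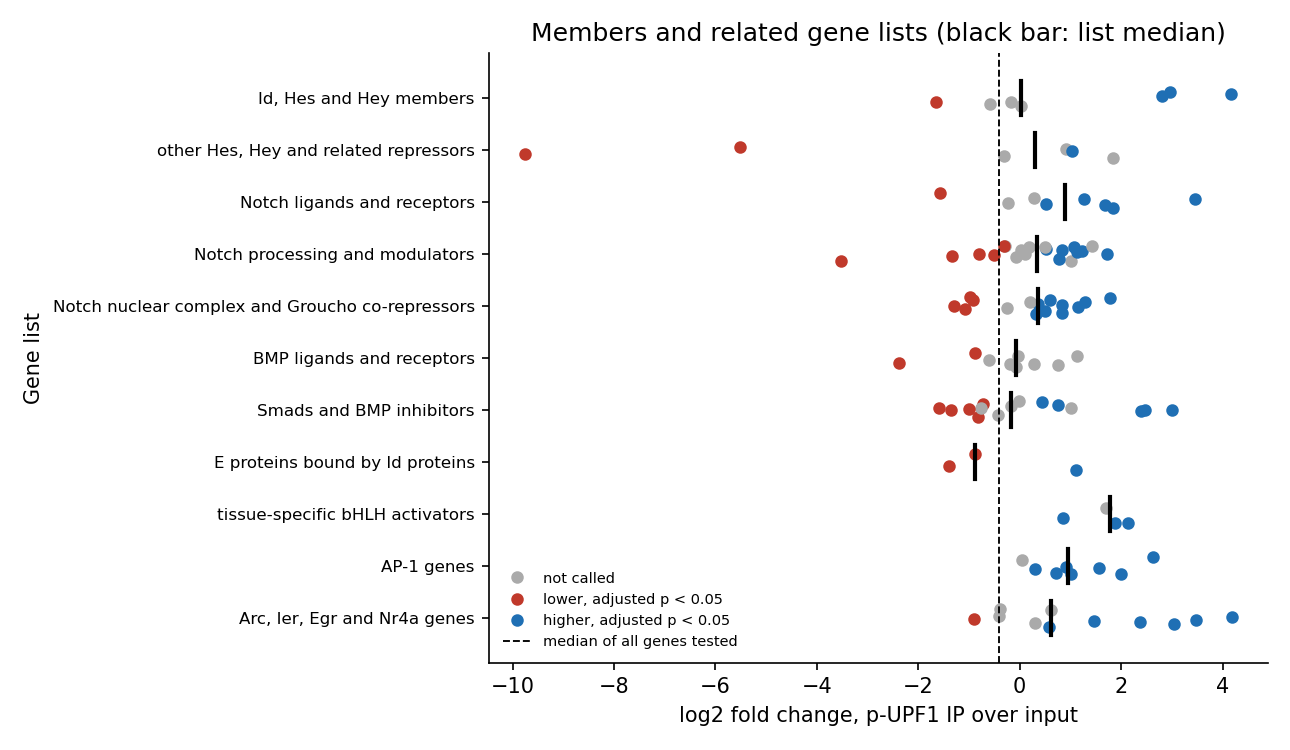
Log2 fold change in the p-UPF1 IP over input of the members and of genes in 10 related lists, 1 point a gene, in blue where higher, red where lower and grey where not called, with fitted values also where counts are few (Hes7 at -9.76), black bars for list medians and a dashed line for the median of all genes tested (-0.42). The 7 members span -1.65 to 4.16 with a median of 0.02, and the lowest of the 8 AP-1 genes tested lies at 0.05.

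Last, the genes most like Id1 and Hey1, which had the most input counts of the Id members and of the Hes and Hey members, in their pattern over the 9 libraries were sought among 9181 genes, by Pearson's r of log2(CPM + 1). For Id1 these were Gtf3a (0.981), Gpsm2 (0.974), Gm15198 (0.974), Ckmt1 (0.972) and Hibadh (0.970). For Hey1 they were 9930014A18Rik (0.996), Gm25813 (0.996), Trim16 (0.994), Nsrp1 (0.990) and Iscu (0.988). The points share libraries and depth, and rIgG libraries of a few counts weigh heavily in r, so these values are descriptions only.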

How the data were processed

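RIP-seq of N2A cells gave 3 input, 3 rIgG IP and 3 p-UPF1 IP libraries. According to the submitters' notes and the methods of the study, the authors mapped reads with STAR 2.7.0f to GRCm38.p6 and quantified transcripts with Salmon 0.13.1. The authors deposited estimated counts per transcript, as whole numbers that are not scaled for depth, and the rounding step and the use of strand are not given in the sources used here. Replicates were not pooled, and 0 value columns lacked a sample.

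Counts were summed by gene name. Each pair of groups was compared on its own 6 libraries with edgeR 4.0.16 in R 4.3.3 (TMM, quasi-likelihood test, summed count of at least 10, Benjamini-Hochberg adjustment over all genes or transcripts). A gene was called at an adjusted p under 0.05, and enriched or depleted also at a log2 fold change beyond 1. Standard errors were derived by dividing a fold change by the root of its F value. Ratios between members were tested with an exact two-sided permutation test. All 24 member transcripts matched GENCODE M21, of the same build as the release the study used. Whether the libraries of a group came from separate cultures is not stated in the labels, so p-values measure the spread between these libraries, which may be technical. Replicates differed by more than sampling noise (chi-square per degree of freedom 3.62 to 15.6).

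The members and lists were chosen with earlier results of these data known. Named genes were all members and their transcripts, in each list up to 3 called genes with the largest fold change and a mean input count of at least 20, and the 5 genes most like Id1 and Hey1 with a mean input count of at least 50. On simulated data with a log2 fold change of 2 or 3, edgeR recovered 96% and 98% of changed genes in the p-UPF1 IP over input (15904 genes, 8.06% of calls false), 63% and 85% over the rIgG IP (11290 genes, 16.9% false) and 30% and 60% in the rIgG IP over input (14449 genes, 4.26% false). For transcripts it recovered 2% and 16% over input (37123 transcripts), so an uncalled transcript says little. At each size only 100 genes or transcripts were altered, a small part of those simulated. In the data themselves, 26.3% of genes were higher and 35.7% lower in the p-UPF1 IP over input. The recovery and the share of false calls may therefore differ there. Recovery was not split by count, so it does not bear on genes with few counts, such as Hes5. Each result was recomputed leaving out single libraries, with a replicate block, on all 9 libraries at once, with filterByExpr or no filter, with library totals or RLE factors, and with DESeq2 1.42.0.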

Additional observations from a re-analysis of the deposited data

How the results depend on the processing

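For genes compared between p-UPF1 IP and input, the numbers of members higher, lower, enriched and depleted were 3, 1, 3 and 1 under 12 of the 13 alternatives, and Hes6 ranged from 4.07 to 4.56 and Id2 from -1.73 to -1.24 on the log2 scale. With filterByExpr Hes5 was not tested, and 2 members were higher and enriched. Hes5 ranged from 2.47 to 3.58 under the other settings. Id1, not called under any setting, ranged from -0.25 to 0.24. Relative to rIgG, the number of members lower and the number depleted were 1 instead of 0 with RLE factors, with DESeq2, with filterByExpr and with a fit of all 9 libraries. In each case this was Id2 (log2 fold change -1.70, -1.70, -1.79 and -1.67, adjusted p = 0.0473, 0.0165, 0.0277 and 0.0429). Leaving out a library gave 0 to 1, with 1 only without the third rIgG library (-1.78, adjusted p = 0.0298).

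Member transcripts lower in the p-UPF1 IP over input numbered 1 instead of 2 with RLE factors, library totals, DESeq2, no filter on low counts and the replicate block, and 1 without any single library. With all 9 libraries in one fit, 0 were lower and 0 depleted. The Id1 mRNA ENSMUST00000038368.8 turned to 0.26 with library totals (adjusted p = 0.206). Over the rIgG IP, 1 transcript instead of 2 was higher and enriched with RLE factors, library totals and the replicate block, and leaving out a library gave 0 to 1, with 1 without any rIgG library. The 0 without any p-UPF1 IP library came from fits that called 0.00513% to 0.0102% of all transcripts, and says little about the members. The Hes6 retained-intron transcript ENSMUST00000126136.7 kept its call in 8 of 13 alternatives. Apart from fewer samples or genes in some fits, the cause was not tested.

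Same-numbered libraries did not deviate together (mean correlation 0.0285, -0.0207 and -0.0132 in the 3 comparisons), so the numbers are not shown to pair the libraries. The replicate block changed no count of members called by summed counts. The few counts of the rIgG libraries limit every comparison with them, and those of Hes5 and Hes1 limit these genes throughout.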
